A study of Mus musculus with 8 samples.

Results

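The interferon-stimulated genes are the genes that cells switch on when interferons bind their receptors, and 33 of them were listed here by symbol: transcription factors of the interferon response, sensors of foreign RNA and DNA, GTPases of the IRG and GBP families, antiviral effector proteins and further induced genes. The platform annotation gave 31 of the 33 at least 1 probe set that names the gene alone, 47 probe sets in all, out of 18193 genes with such a probe set. Isg15 was named only on a probe set shared with a second gene, no probe set was listed for Ifi44, so neither has a level here. Of several probe sets of a gene, the one with the highest mean over the 8 arrays stood for it. It was tested where that probe set was detected (detection p under 0.05 in the per-array files) on at least 4 of the 8 arrays, which held for 22 members and for 10573 genes in all.

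The RNA came from pancreatic islets, the hormone-secreting cell clusters of the pancreas, of the inbred mouse strains AKR/J and C57Bl/6J, each after 3 months on a high-fat diet. There were 4 arrays per strain, with AKR/J on arrays 1 to 4 and C57Bl/6J on arrays 5 to 8, and each array carried RNA pooled from 2 mice. No transgene, infection or interferon treatment is named in the labels, which give no age, and all 8 pools shared the diet, so every comparison is between strains on that diet. Pooling hides the spread between mice, and p-values measure the spread between pools.

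Type I interferons act through the receptor chains Ifnar1 and Ifnar2 and the kinases Jak1 and Tyk2, which lead to a complex that holds Stat2 and Irf9. That complex binds the interferon-stimulated response element (ISRE), a pair of GAAA-like repeats in the promoters of its targets. Interferon gamma acts through Ifngr1 and Ifngr2 and leads to binding at the gamma-activated site (GAS), and Irf1 carries that signal on to many GTPase genes. In islets this response is known from viral infection and from the inflammation that precedes autoimmune diabetes, in which beta cells themselves express these genes.

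Promoters were available in the RefSeq table (build GRCm38.p6, the C57Bl/6J reference; AKR/J sequence was not analysed here) for 23 members, from 250 bases before to 50 after the start site. The ISRE was searched on both strands as GAAANNGAAA, in which N is any base, and successive matches may overlap. A match was present in 15 of the 23 (65.2%), against 3.99% of the 27025 genes of the table. The windows below are shown because they carry the element in members that were lower in AKR/J (Igtp, Irgm1, Bst2 and Rsad2), in a pair of members that were highest on C57Bl/6J array 5 (Ifit1 and Ifit3) and in a GTPase gene that did not pass the test (Gbp2). They read 5′ to 3′ along the gene, with the matches in capitals; where the element lies on the other strand, its repeats read as TTTC.
Igtp: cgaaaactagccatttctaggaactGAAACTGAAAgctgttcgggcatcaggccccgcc
Irgm1: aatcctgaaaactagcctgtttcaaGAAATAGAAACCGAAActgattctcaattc
Bst2: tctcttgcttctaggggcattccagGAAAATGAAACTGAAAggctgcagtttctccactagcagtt
Rsad2: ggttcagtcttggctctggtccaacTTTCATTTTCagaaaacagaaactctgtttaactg
Ifit1: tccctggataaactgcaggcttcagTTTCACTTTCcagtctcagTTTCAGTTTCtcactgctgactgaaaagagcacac
Ifit3: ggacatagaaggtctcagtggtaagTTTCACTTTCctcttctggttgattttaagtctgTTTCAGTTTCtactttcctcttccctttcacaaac
Gbp2: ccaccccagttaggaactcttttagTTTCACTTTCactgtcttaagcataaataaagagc
The windows lie at chr11:58199497-58199555, plus strand, for Igtp, and at chr11:48871421-48871475, minus strand, for Irgm1. Those of Bst2 and Rsad2 lie at chr8:71537562-71537627, minus strand, and at chr12:26456538-26456597, minus strand. The Ifit1 and Ifit3 windows are at chr19:34640760-34640838, plus strand, and chr19:34583348-34583441, plus strand, and the Gbp2 window is at chr3:142620579-142620638, plus strand. The match of Igtp starts 34 bases before the start site and that of Rsad2 120 bases before it. Irgm1 and Bst2 each hold 2 overlapping matches, whereas the 2 matches of Ifit1 and of Ifit3 are separate.

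The GAS was found in fewer of the members. Searched on both strands as TTCNNNGAA, it was present in 6 of the 23 promoters (26.1%) against 9.55% of all genes; Igtp and Bst2 held both elements. A match of letters describes the window and does not show that a factor bound there. By outcome of the strain test described next, the ISRE letters were in 6 of 7 members with a promoter that were lower in AKR/J (in Ifih1 and Ddx58 after the start site), in 6 of 11 that were tested and did not pass, and in 3 of 5 that were too dim to test or not measured. Members called lower and members that did not pass thus both included carriers of the element, and these few promoters were not compared by a test.

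Most interferon-stimulated genes that differed between the strains were lower in AKR/J. Of the 22 tested members, 8 were lower in AKR/J at a limma adjusted p under 0.05 (Rsad2, Oasl2, Igtp, Ifih1, Rtp4, Bst2, Ddx58 and Irgm1), 1 was higher (Usp18) and 13 did not pass. With the deposited per-array signals 4 were lower, the calls of Rtp4, Bst2, Irgm1 and Ddx58 being lost, and 1 was higher. Among all 10573 tested genes 8.73% were called lower and 7.90% higher in AKR/J. The 4 arrays of one strain lay wholly below those of the other for 10 members in the direction of lower AKR/J and for 1 in the other direction, where 12.0% and 13.3% of all tested genes did so. Over the 31 measured members the median difference, AKR/J minus C57Bl/6J, was -0.34 on the log2 scale and 22 were below 0, against a median of 0.02 over all genes with a probe set. The members were listed with results of these data known, so the list was given no test of its own.

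**Figure D1:**
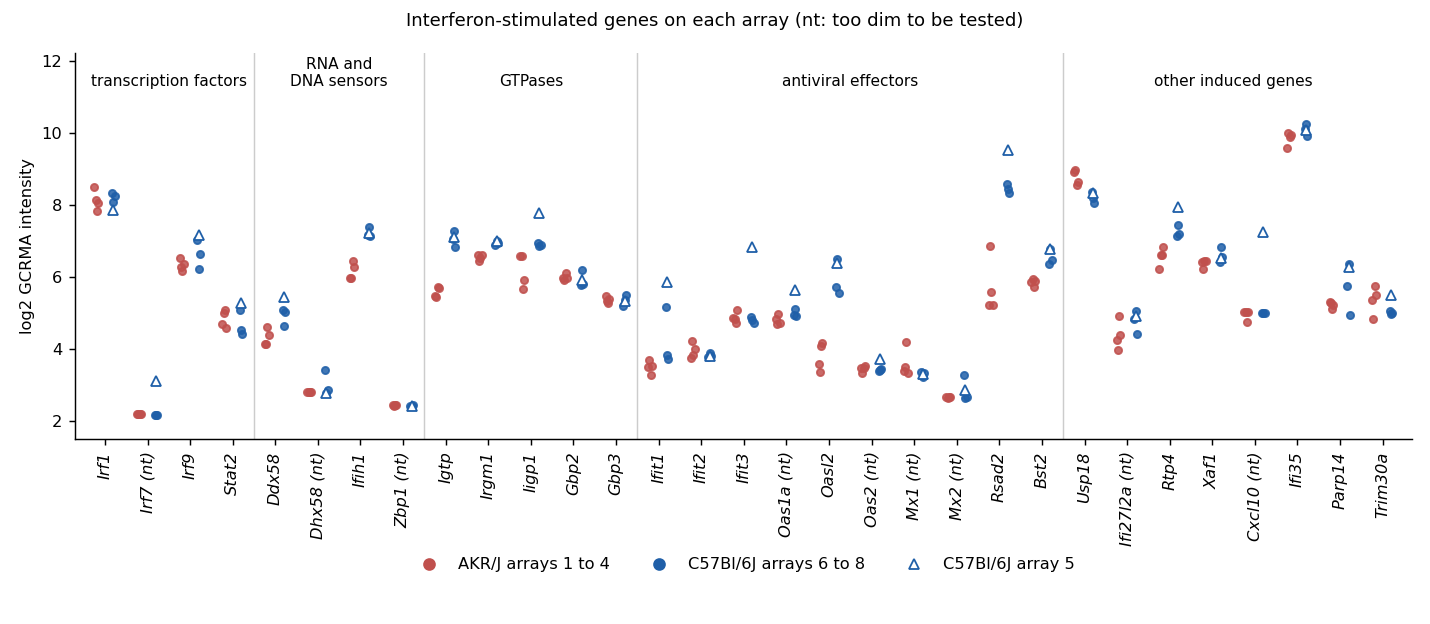
Log2 intensity of the representative probe set of each of 31 members on every array, grouped by role; red points are the 4 AKR/J arrays, blue points C57Bl/6J arrays 6 to 8 and open triangles C57Bl/6J array 5, and "nt" marks members too dim to be tested. Rsad2, Oasl2, Igtp and Ifih1 show strains well apart, while array 5 stands alone for Cxcl10, Ifit3 and Irf7.

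C57Bl/6J array 5 stood apart from the other 3 arrays of its strain for these genes. It was the highest of the 4 for 9 of the 22 tested members (40.9%) against 22.4% of all tested genes. Array 7 was the highest for 10 members (45.5%), but it was so for 32.9% of all genes, and its median member lay at 0.00 from the mean of the other 3. Array 8 departed the other way, being the highest for 1 member (4.55%) against 23.7% of all genes. Its median member lay at -0.21, against -0.01 for all genes. On array 5 the median member lay 0.36 above the mean of the other 3 on the log2 scale, where the median of all genes lay at -0.01. The called members, the member counts and the means by role are therefore given with and without array 5. Counts of the other lists are over all 8 arrays. Without it, 7 members were lower and 1 higher in AKR/J, Ddx58 being the one lost, and the median over the 31 members was -0.20.

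Markers of the cells that an islet preparation can hold also moved with strain. Ins2, Gcg, Sst and Iapp, which encode the islet hormones, were detected on all 8 arrays. Of 16 tested macrophage markers 10 were lower in AKR/J and 0 higher, with a median of -0.62 over the 18 measured, and their summed linear intensity was 3308 to 4173 on the AKR/J arrays against 6224 to 7482 on the C57Bl/6J arrays. The macrophage markers Csf1r, C1qa, C1qb and C1qc were detected on every array, so transcripts of these cells were present in both strains. C1qa did not differ (-0.01, limma adjusted p = 0.973). The markers Itgam and Fcgr1 were detected on only 1 C57Bl/6J array each and on no AKR/J array. With the per-array signals 8 of the 16 were lower. All 13 tested acinar markers were lower in AKR/J as well (7 with the per-array signals), and 4 of 12 endothelial markers were higher (1 with those signals). Some lymphoid and stromal markers moved too. Ptprc, of all leukocytes, was at -0.82 (limma adjusted p = 0.034) and Igha of plasma cells at -3.88 (adjusted p = 0.00224). The Ptprc call was lost with the per-array signals (adjusted p = 0.124). Igha was detected on 1 of 4 AKR/J arrays, so its AKR/J level lies near background and the size of its difference is uncertain. Pdgfra of fibroblasts was at -1.31 (adjusted p = 0.00207) and Rgs5 of pericytes at 1.42 (adjusted p = 2.21e-05). Most others of these lists did not pass. Of 3 tested T and B lymphocyte markers 1 was lower in AKR/J, and of 5 plasma cell markers 1. Of 8 fibroblast and pericyte markers 2 were lower and 1 higher. The medians of the 3 lists over the measured genes were 0.03, 0.01 and -0.20. Cd3d, Cd3e and Cd3g of T cells and Siglech of plasmacytoid dendritic cells were detected on no array. In such mixed tissue, fewer cells of a type and less RNA per cell cannot be told apart, and the part of these cell types in the results below was not tested.

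Upstream of the members, the interferon genes themselves gave no signal above background. Of 10 interferon genes with a probe set (among them Ifnb1, Ifng and several Ifna genes) 9 were detected on no array and Ifna11 on 1 C57Bl/6J array; none was bright enough to be tested. Their log2 values lay between 2.07 and 3.18 on all arrays, array 5 included, and differences between strains ran from 0.01 to 0.14.

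Of 4 tested receptor genes, Ifnar2, a chain of the type I receptor, was higher in AKR/J, at 8.44 ± 0.15 against 7.84 ± 0.11 (log2, SD, n = 4 each; difference 0.61, limma adjusted p = 0.00451). That call rests on the brightest probe set: a second tested probe set of Ifnar2 gave -0.32 (adjusted p = 0.231), and the mean of the tested ones did not pass (adjusted p = 0.426). Ifngr1, the ligand-binding chain of the interferon gamma receptor, had a difference of -0.38 with no overlap of the arrays (adjusted p = 0.0586). Ifnar1 was at -0.06 (adjusted p = 0.838).

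Of 11 tested genes of JAK-STAT signalling 1 was lower in AKR/J and 0 higher, a share near the 8.73% of all genes. That gene was Pias1, an inhibitor of activated STAT proteins, at -0.38 (limma adjusted p = 0.025). Its other tested probe sets gave -0.49 (adjusted p = 0.00745) and -0.30 (adjusted p = 0.116), and the call was lost with the per-array signals (adjusted p = 0.457) and in 4 of 8 fits that left out 1 array (adjusted p up to 0.0663 without AKR/J array 4). The kinase gene Jak1 was at -0.25 (adjusted p = 0.296) and Socs3, a feedback inhibitor, at 0.32 (adjusted p = 0.106). Among the adaptors and kinases of nucleic acid sensing, 1 of 8 tested was lower, again near the share of all genes: Tlr3, an endosomal receptor of double-stranded RNA, at -0.51 (adjusted p = 0.00747), although its other probe set was at -0.09 (adjusted p = 0.669) and the per-array signals lost the call (adjusted p = 0.315). The medians of these lists, -0.06 and 0.00, lay near that of all genes.

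None of the member transcription factors passed the test. Irf1, the factor of the interferon gamma arm, measured 8.49, 8.14, 7.82 and 8.03 on AKR/J arrays 1 to 4 and 7.84, 8.32, 8.06 and 8.23 on C57Bl/6J arrays 5 to 8. The strains overlapped fully, with a difference of 0.01 (95% interval -0.36 to 0.37; limma adjusted p = 0.985). Stat2 was at 0.00 (-0.49 to 0.50; adjusted p = 0.996) and Irf9, the DNA-binding subunit of their complex, at -0.43 (-0.90 to 0.04; adjusted p = 0.202). Irf7, which amplifies type I interferon production, was too dim to test: it lay between 2.16 and 2.18 on 7 arrays and at 3.09 on C57Bl/6J array 5, the only one on which it was detected.

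Both tested RNA sensors were lower in AKR/J. Ifih1 (MDA5), which senses long double-stranded RNA, measured 5.97, 5.96, 6.42 and 6.28 in AKR/J and 7.21, 7.16, 7.38 and 7.14 in C57Bl/6J. Every AKR/J array lay below every C57Bl/6J array, with a difference of -1.07 ± 0.12 (SE), or 2.09-fold (limma adjusted p = 0.00101), and -1.07 also without array 5 (adjusted p = 0.0046). Ddx58 (RIG-I), which senses RNA ends bearing a triphosphate, measured 4.13, 4.12, 4.60 and 4.39 against 5.44, 5.07, 4.63 and 5.03. These values nearly touch, at 4.60 on AKR/J array 3 and 4.63 on C57Bl/6J array 7. The difference was -0.73 ± 0.18 (adjusted p = 0.0324) and the call was lost without array 5 (-0.60, adjusted p = 0.0632). A second tested Ddx58 probe set gave -0.29 (adjusted p = 0.167). Dhx58 (LGP2), their regulator, and the nucleic acid sensor Zbp1 were detected on no array.

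Of the 5 member GTPases 2 were lower in AKR/J: Igtp and Irgm1, of the immunity-related GTPases (IRG family), which act on the vacuoles of intracellular pathogens. The IRG gene Iigp1 and the guanylate-binding protein (GBP) genes Gbp2 and Gbp3, whose products act on the same vacuoles, did not pass the test. Igtp (Irgm3) measured 5.47, 5.44, 5.71 and 5.67 in AKR/J and 7.10, 7.05, 7.28 and 6.82 in C57Bl/6J. The strains were more than a log2 unit apart on every array, with a difference of -1.49 ± 0.12 (2.81-fold; limma adjusted p = 1.34e-04). The per-array signals gave -0.77 (1.7-fold; adjusted p = 0.00407). Igtp was detected on 2 of 4 AKR/J arrays, so the AKR/J level lies near background and the size of the difference is uncertain; without array 5 it was at -1.48 (adjusted p = 9.51e-04). Irgm1, a regulator of the family, measured 6.59, 6.44, 6.53 and 6.59 against 6.98, 6.87, 7.0 and 6.92. Its difference of -0.41 ± 0.07 was small but larger than the spread of either strain, 0.07 and 0.06 SD (adjusted p = 0.00522; -0.39 without array 5, adjusted p = 0.0167).

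Iigp1 (Irga6), an effector of the IRG family, measured 6.57, 6.57, 5.65 and 5.91 in AKR/J against 7.78, 6.92, 6.85 and 6.87 in C57Bl/6J. The strains did not overlap, yet the difference of -0.93 ± 0.28 did not pass (limma adjusted p = 0.0661; -0.70 without array 5, adjusted p = 0.117). A second Iigp1 probe set, not used to represent the gene, did pass at -0.97 (adjusted p = 0.0158), with AKR/J values of 5.51 to 5.63 and C57Bl/6J values of 6.03 to 7.10. Gbp2 was at 0.07 (95% interval -0.17 to 0.31; adjusted p = 0.687) and Gbp3 at 0.01 (-0.18 to 0.20; adjusted p = 0.934). The second Gbp2 probe set, at 0.33 (-0.41 to 1.06), was less precise. Genes of the families outside the members did not divide clearly by family. The GBP genes Gbp7 and Gbp6 were at -0.81 (adjusted p = 0.0601) and -0.52 (adjusted p = 0.0643). The IRG gene Irgm2 was lower in AKR/J at -0.73 (adjusted p = 0.0376; 0.0933 without array 5), and the IRG gene Ifi47 was at 0.15 (adjusted p = 0.43). The families were not compared by a test.

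The antiviral effectors held the widest strain differences among the members. Rsad2 (viperin), which makes a chain-terminating nucleotide against viral polymerases, measured 5.22, 6.85, 5.57 and 5.21 in AKR/J and 9.52, 8.56, 8.43 and 8.33 in C57Bl/6J. The highest AKR/J array, array 2, lay well above the other 3 of its strain and still below every C57Bl/6J array. The difference was -3.00 ± 0.41 (7.98-fold; limma adjusted p = 0.00257), and -2.73 without array 5 (adjusted p = 0.00679). The other probe sets of Rsad2 gave -2.99 (adjusted p = 0.00228) and -1.40 (adjusted p = 0.0508), so all 3 lay in the same direction and differed in size.

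Oasl2, a member of the oligoadenylate synthetase-like family, measured 3.57, 3.35, 4.08 and 4.16 in AKR/J and 6.39, 5.70, 6.48 and 5.54 in C57Bl/6J. The difference was -2.23 ± 0.27 (4.70-fold; limma adjusted p = 0.00137), with detection on 2 of 4 AKR/J arrays, near background. The per-array signals gave -1.48 (2.8-fold; adjusted p = 5.47e-04). Bst2 (tetherin), which holds budding virus at the cell surface, measured 5.86, 5.94, 5.71 and 5.89 against 6.77, 6.34, 6.78 and 6.47. AKR/J again lay wholly below C57Bl/6J, by -0.74 ± 0.12 (1.67-fold; adjusted p = 0.0048). Without array 5 Oasl2 (-2.11, adjusted p = 0.00546) and Bst2 (-0.68, adjusted p = 0.0141) both passed.

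The IFIT genes, whose proteins bind foreign RNA, did not pass the test and differed among themselves. Ifit1 measured 3.50, 3.69, 3.28 and 3.51 in AKR/J and 5.84, 5.15, 3.82 and 3.71 in C57Bl/6J. C57Bl/6J arrays 5 and 6 were high and arrays 7 and 8 lay near AKR/J, so the strains did not overlap but the difference of -1.13 ± 0.46 failed (limma adjusted p = 0.138; -0.73 without array 5, adjusted p = 0.226). Ifit3 lay between 4.71 and 5.08 on 7 arrays and at 6.82 on array 5. Its difference of -0.44 (adjusted p = 0.55) became 0.07 without that array (adjusted p = 0.729). Ifit2 was at 0.12 (95% interval -0.12 to 0.37; adjusted p = 0.479), and array 5 measured 3.80 among C57Bl/6J values of 3.76 to 3.89.

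Of the remaining effectors, Oas1a, Oas2, Mx1 and Mx2 were too dim to test. Oas1a and Oas2, which make the messenger that activates RNase L, and Mx2 were detected on no array, and Mx1, a dynamin-like GTPase against influenza-type viruses, on 1 AKR/J and 2 C57Bl/6J arrays. Their differences ran from -0.34 to 0.29 and are not read further.

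**Figure D2:**
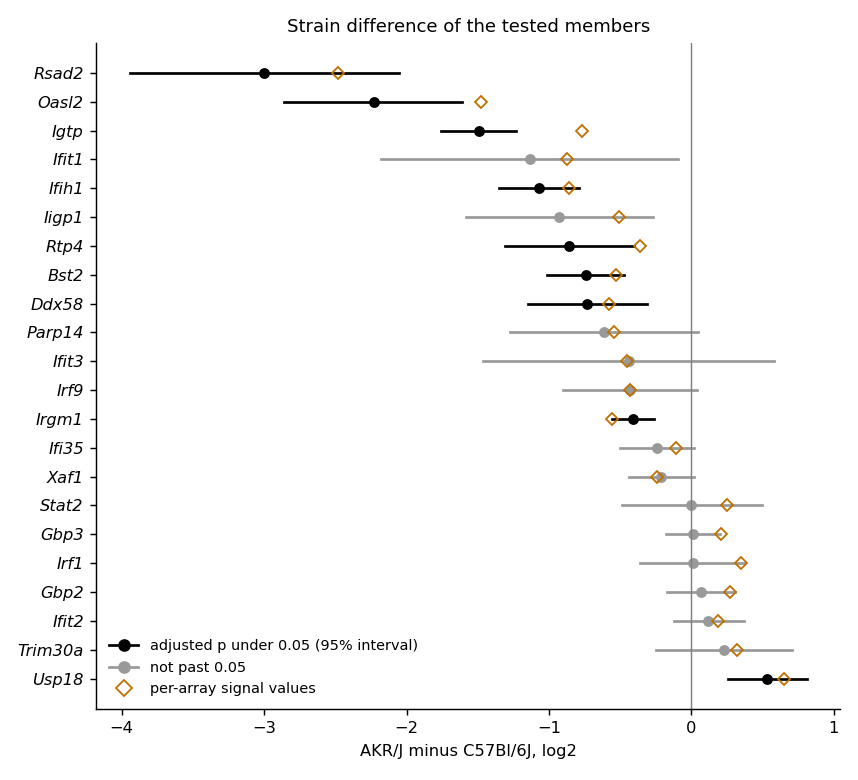
Difference of each of the 22 tested members, AKR/J minus C57Bl/6J on the log2 scale, with its 95% interval (black where the limma adjusted p was under 0.05, grey otherwise); open diamonds give the difference in the deposited per-array signals. The 8 lower members run from -3.00 for Rsad2 to -0.41 for Irgm1 and Usp18 lies at 0.53, and the per-array signals give smaller sizes for most of the lower members.

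Among the other induced genes 1 was lower and 1 higher. Rtp4, a chaperone of membrane receptors, measured 6.22, 6.61, 6.61 and 6.83 in AKR/J against 7.94, 7.14, 7.42 and 7.19 in C57Bl/6J. The difference was -0.86 ± 0.20 (limma adjusted p = 0.025), and -0.68 without array 5 (adjusted p = 0.0333). Usp18, which removes Isg15 from proteins and damps the type I receptor, went the other way, at 8.90, 8.95, 8.54 and 8.63 against 8.33, 8.36, 8.18 and 8.03. Its AKR/J arrays all lay above the C57Bl/6J arrays, by 0.53 ± 0.12 (1.45-fold; adjusted p = 0.0226; 0.57 without array 5, adjusted p = 0.0404).

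The rest of that group did not pass. Parp14, a mono-ADP-ribosyltransferase, was at -0.61 (limma adjusted p = 0.196), Ifi35 at -0.24 (adjusted p = 0.196), the proapoptotic factor gene Xaf1 at -0.21 (adjusted p = 0.211) and Trim30a, a ubiquitin ligase family member, at 0.23 (adjusted p = 0.501). The 3 probe sets of Ifi35 lay between -0.19 and -0.29. Those of Trim30a differed in sign, the second being at -0.36 (adjusted p = 0.0515). Ifi27l2a was too dim to test. Cxcl10, a chemokine that draws T cells, was also not tested: it lay between 4.74 and 5.01 on 7 arrays and at 7.24 on C57Bl/6J array 5.

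The groups can be set side by side by the mean of their members on each array, after subtraction of each gene's mean over the 8 arrays. Over all 31 members the AKR/J arrays lay together, at -0.28, -0.25, -0.22 and -0.24, and the C57Bl/6J arrays were spread, at 0.57, 0.21, 0.18 and 0.03. The strain difference of this mean was -0.49, and -0.38 without array 5. It was -0.34 without Rsad2 and Oasl2, the pair with the widest differences. By role the differences were -0.77 for the effectors, -0.55 for the GTPases, -0.48 for the sensors, -0.27 for the other induced genes and -0.16 for the transcription factors. Without array 5 they were -0.61, -0.50, -0.46, -0.14 and -0.06, in the same order. These are descriptions of 4 to 10 genes each, with no test between roles.

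**Figure D3:**
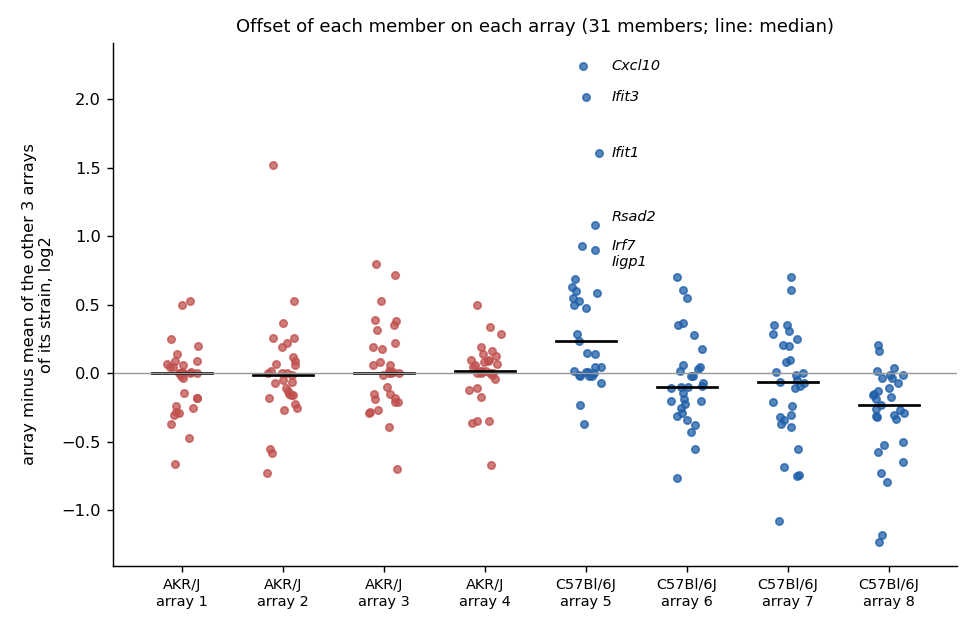
For each array, the log2 value of every one of the 31 measured members minus the mean of the other 3 arrays of its strain, with the median as a line; red is AKR/J and blue C57Bl/6J. On array 5, 6 labelled members lie between 0.90 and 2.24 above the other C57Bl/6J arrays, and Rsad2 accounts for the single high point of AKR/J array 2.

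The excess on array 5 was carried by some members and not by others. Against the mean of the other 3 C57Bl/6J arrays it was 2.24 for Cxcl10, 2.02 for Ifit3, 1.61 for Ifit1, 1.08 for Rsad2, 0.93 for Irf7 and 0.90 for Iigp1. It was intermediate, between 0.48 and 0.69, for Rtp4, Oas1a, Stat2, Parp14, Irf9, Ddx58, Trim30a and Oasl2. For Ifih1, Igtp, Irgm1, Gbp2, Gbp3, Ifit2 and Ifi35 it lay between -0.02 and 0.05, and for Irf1 at -0.37. Of the 22 tested members 3 were more than 2-fold above the others on this array, where 0.426% of all tested genes were. The per-array signals, computed from the same hybridisation, showed the same array high: 151 for Cxcl10 against 26.8 to 39.1, and 153 for Ifit3 against 36 to 63.7. A second probe set of Rsad2 read 7.24 on array 5 against 5.17 to 5.69.

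Other lists did not stand apart on that array to the same degree. Among 34 tested genes of a second list of interferon-induced genes 11 were highest on array 5 (32.4%), 0 of them by more than 2-fold, and the median offset was 0.04. Of the 16 tested macrophage markers 1 was highest there.

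Genes of the response beyond the 33 were also lower in AKR/J for the most part where they passed the test. Of the 34 tested in that second list 12 were lower in AKR/J, 2 were higher and 20 did not pass, against 8.73% lower and 7.90% higher of all tested genes, with a median of -0.22 over the 44 measured. With the per-array signals 8 were lower and 1 higher. Without array 5 the calls of Adar, Samhd1, Herc6, Irgm2 and Pml were lost (limma adjusted p = 0.0529, 0.0703, 0.0659, 0.0933 and 0.0624). Each of these was also lost without some of the other arrays. The other lower genes of this list stayed lower without array 5. Trim34a and Ifi202b were detected in 1 strain only and so were tested through the strain in which they are high; among the 32 others 11 were lower and 1 higher. Trim34a, a TRIM family ubiquitin ligase, lay between 5.62 and 6.06 in C57Bl/6J and between 2.73 and 2.96 in AKR/J. It was detected on no AKR/J array, so the measured 7.77-fold difference is against background. Cmpk2, a mitochondrial nucleotide kinase, measured 7.32, 7.29, 7.23 and 7.31 against 9.14, 8.77, 8.41 and 8.29 (difference -1.37, limma adjusted p = 0.00176), and its second probe set gave -0.75 (adjusted p = 0.203). Dtx3l, a ubiquitin ligase, was at -0.71 (adjusted p = 0.00316), but its second probe set was at -0.28 (adjusted p = 0.576) and the mean of both did not pass (adjusted p = 0.0606). Ifi202b, a DNA-binding HIN-200 protein, was the reverse, with AKR/J values of 4.60 to 4.91 and C57Bl/6J values of 2.89 to 3.32. It was detected on no C57Bl/6J array, so its measured 3.33-fold difference is also against background. For genes undetected in one strain, a sequence difference under the probes was not tested.

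Several members lie beside another gene of the response, with 0 protein-coding genes between them in the RefSeq gene table. Rsad2 and its neighbour Cmpk2 were both lower in AKR/J, as were Igtp (-1.49) and its neighbour Irgm2, another IRG gene (-0.73, limma adjusted p = 0.0376). The call of Irgm2 was lost without array 5 (adjusted p = 0.0933), in 6 of 8 leave-outs in all (adjusted p up to 0.0986 without AKR/J array 2) and with the per-array signals (adjusted p = 0.109). Beside Parp14, which did not pass, lay Dtx3l, which did with its brightest probe set. The neighbour of Oasl2, Oasl1, was at 0.00 (adjusted p = 0.997) near background, and that of Gbp3, Gbp7, at -0.81 (adjusted p = 0.0601) beside 0.01 for Gbp3 itself. Ifit3, high on array 5, is adjacent to Ifit2, which was not.

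**Figure D4:**
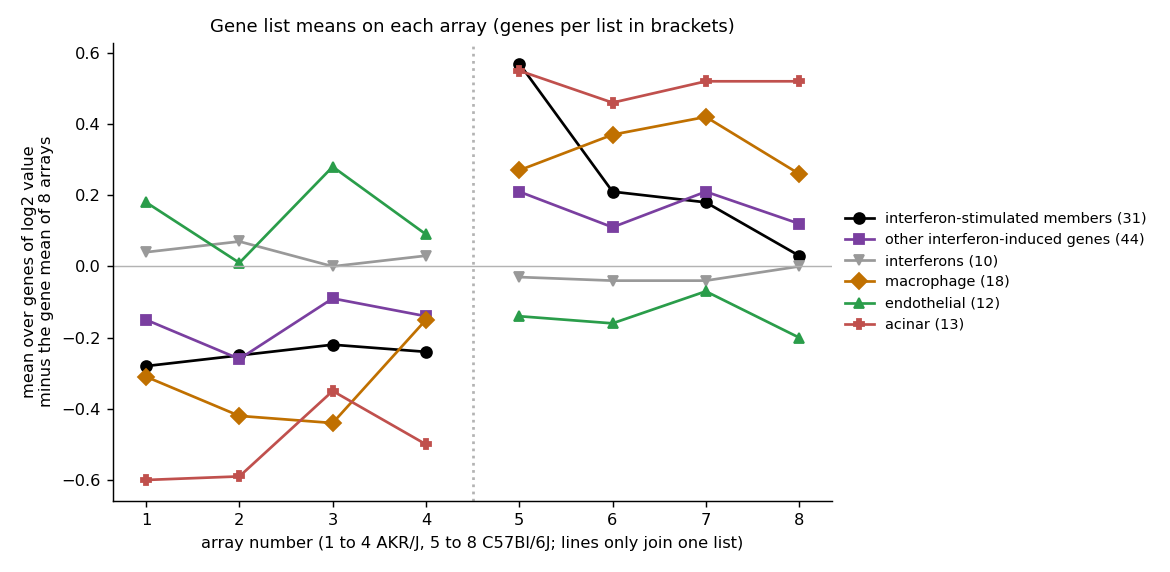
Mean over the genes of each list of the log2 value minus the gene's mean over 8 arrays, by array; the number of genes is in brackets, and lines join the points of one list only. The members (black) and the macrophage markers (orange) are both higher in C57Bl/6J (AKR/J minus C57Bl/6J -0.49 and -0.66). Within C57Bl/6J the members are highest on array 5, the macrophage markers on array 7, and both are lowest on array 8. The interferon genes (grey) stay near 0.

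The members and the macrophage markers thus moved the same way between strains, and their order of arrays within a strain differed in part. In C57Bl/6J the member mean ran 0.57, 0.21, 0.18 and 0.03 on arrays 5 to 8, and the macrophage mean 0.27, 0.37, 0.42 and 0.26. Array 8 was the lowest of that strain in both lists, and its macrophage means lay close together (SD 0.08). In AKR/J array 4 had the highest macrophage mean, at -0.15, while its member mean of -0.24 lay close to the strain's -0.25 ± 0.03 (SD, n = 4). With 4 arrays per strain no relation between the lists was tested.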

How the data were processed

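The value table of the series holds linear intensity values that the authors made with GCRMA (background correction by probe sequence, normalization across arrays, summary to probe sets), per the submitters' processing notes; its version and the genome build are not given in the sources used here. They were log2-transformed without further normalization, since array quantiles lay within 0.0904. The deposited per-array files hold a signal intensity, used as an alternative, and the p-value of each probe set's detection call. Each array received 5 µg of RNA per the labels, and 43.68% to 48.1% of probe sets were detected on each; their number limits the precision. Of 45101 probe sets, 64 controls were left out and 20772 were fitted with limma (lmFit, eBayes; AKR/J minus C57Bl/6J; Benjamini-Hochberg over all of them, threshold 0.05). The platform annotation names 1 symbol for 34945 probe sets, several for 932 and none for 9160; probe sets without a single symbol entered the fit and are not named. A fold against a strain with no detected array is a fold against background, and its size is uncertain. Members, lists and alternatives were chosen with earlier results of these data known. Per-array values are given for called members and for those that represent a role. Pathway lists name up to 4 called genes by smallest p, or otherwise the brightest, and genes beside a member; Ifnar1, Ifngr1, Jak1, Socs3, Irgm2, Oasl1 and Gbp7 were added for their link to members. In simulated data 65, 62 and 73 of 20772 probe sets were changed 1.5-fold, 2-fold and 4-fold. The fit recovered 30.77%, 67.74% and 98.63% of them. Far fewer were changed there than were called in the data, which alters the adjusted p, so these rates need not hold here. A gene that did not pass can still differ between the strains. No scan date is given, so no batch could be fitted. R 4.3.3, limma 3.58.1, Python 3.11.15 and matplotlib 3.10.9 were used.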

Additional observations from a re-analysis of the deposited data

Results flagged for a closer look

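Members detected on at least 1 array of a strain (50 groups of 4 arrays) and the mean over all members in each strain were examined for 1 array far from the other 3 by Dixon's ratio; members detected on no array of a strain were left out there. Of 52 groups 6 were picked out. Chance gives about 1 in 20 where values vary freely, which does not hold for Irf7 and Cxcl10, whose other arrays lay at the background level with almost no spread. In 5 of them the array was C57Bl/6J array 5. Irf7 read 3.09 there, against 2.16 to 2.17 on the other 3 arrays of the strain. Iigp1 read 7.78 against 6.85 to 6.92, Ifit3 6.82 against 4.71 to 4.89 and Cxcl10 7.24 against 4.99 to 5.00, all log2 intensities. Trim30a read 5.49 against 4.96 to 5.04, but its per-array signal, 48.9 against 35.3 to 45.9, showed little of this. The sixth was Xaf1 in AKR/J, at 6.21 on array 2 against 6.41 to 6.43, a narrow range.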

How the results depend on the processing

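The mean over the members stayed lower in AKR/J under every alternative run, between -0.38 and -0.62. The count of members lower in AKR/J was 5 of 12 tested when detection on all 8 arrays was required and 4 of 22 with the deposited per-array signals. It was 6 to 9 under the other alternatives and 6 to 8 with one array left out. The count of higher members was 0 with no filter and 0 to 1 with one array left out, being 0 without AKR/J array 1 or 2 or C57Bl/6J array 7 or 8. Ifih1, Igtp, Oasl2 and Rsad2 passed under all alternatives and with any array left out, except where a filter removed them, and Irgm1 and Bst2 did so save with the per-array signals (adjusted p = 0.116 and 0.119). Ddx58 was lost in 6 of 8 leave-outs, Usp18 in 4 and Rtp4 in 3; with the per-array signals Ddx58 (0.0526) and Rtp4 (0.236) were lost, and with no filter all 3 were (adjusted p = 0.0948, 0.0569 and 0.0786). Over the 9 called members 20 of 158 settings lost a call and 0 reversed. Iigp1 was called with the mean of its probe sets (adjusted p = 0.0226) or detection on all arrays (0.0445), Irf9 without C57Bl/6J array 7 (0.039) and Parp14 without C57Bl/6J array 8 (0.0113). The causes were not tested. No paired analysis was possible because the strains share no replicate number. Limits are 4 pools per strain, signals near background for the dim members, and probes of one reference sequence.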

Other observations

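A few further interferon-induced genes differed between the strains without a place in the comparisons above. A pair of IFITM genes, whose proteins block viral entry, went in opposite directions: Ifitm3 was lower in AKR/J (-0.44, limma adjusted p = 0.00932) and Ifitm2 higher (0.48, adjusted p = 0.0137; 0.0634 with the per-array signals), each without overlap of the arrays. Ddx60, a helicase that aids RNA sensing, was lower by -1.55 (adjusted p = 0.00942), with AKR/J values of 3.41 to 4.27 and C57Bl/6J values of 4.73 to 5.96, but its second probe set was at -0.07 (adjusted p = 0.61) and the per-array signals lost the call (adjusted p = 0.161). Trim21, an antibody receptor and ubiquitin ligase of the cytosol, was lower by -0.92 (adjusted p = 0.00379) with its brightest probe set, while a second one, detected on all 8 arrays, gave 0.06 (adjusted p = 0.823) and the mean of both did not pass (adjusted p = 0.0588). Adar, which edits double-stranded RNA, was lower by -0.39 (adjusted p = 0.0218), a call lost in 5 of 8 fits that left out 1 array (adjusted p up to 0.0596 without AKR/J array 1), with the per-array signals (0.0873) and with the mean of its probe sets (0.0796). These 5 genes were chosen after their values were seen.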
